A study of Homo sapiens with 2 samples.

Results

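Pinometostat and SGC_0946, which inhibit the histone methyltransferase DOT1L, MI-3, which blocks menin, and MM_102, which blocks the contact of WDR5 with MLL, are the 4 compounds described here, chosen by the compound name in the deposited well annotation. They are 4 of the 74 treatments that shared the plates with DMSO, and they fill 8 of 192 wells. The cells were K562, a long-established line from a human chronic myeloid leukaemia, erythroid in character, that carries the BCR-ABL1 fusion. The series tested inhibitors of transcription and of chromatin regulators in these cells, and MAC-seq, in which each well of a plate receives its own barcode and the 3′ ends of polyadenylated RNA are counted from 1 pooled library per plate, was the readout.

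The groups, all exposed for 6 h, were Pinometostat, SGC_0946, MI-3 and MM_102 with 2 wells each (1 per plate), a reference of 12 wells, and 24 wells of DMSO, the vehicle. The reference pooled EtOH (ethanol, a solvent), Ofloxacin (an antibiotic), EPZ015666 and GSK591 (inhibitors of the arginine methyltransferase PRMT5), EED226 (a ligand of EED) and GSK126 (an inhibitor of EZH2), with 2 wells per treatment. EED and EZH2 are parts of the Polycomb complex that methylates H3K27, so the reference is a set of other treatments and not of untreated cells. Doses are not given in the labels, so no 2 compounds can be said to have been set side by side at matched dose. Wells were technical duplicates on 2 plates of 1 line, and the p-values below therefore measure only the spread between wells.

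DOT1L methylates H3K79 in the body of transcribed genes and works with MLLT10, MLLT3 and MLLT1, partners that also link it to transcription elongation. MLL (KMT2A) methylates H3K4, needs WDR5 for its activity within the complex, and is held at genes such as the HOXA cluster and MEIS1 by menin, the product of MEN1. In leukaemias with MLL fusions, HOXA9, HOXA10 and MEIS1 depend on both DOT1L and menin; K562 carries no such fusion. Pinometostat and SGC_0946 are both aminonucleosides that occupy the site of the methyl donor. Among their differences is the base, which is adenine in Pinometostat and a brominated deaza-adenine in SGC_0946.

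The barcode that marks the wells of each compound is shown because the duplicates of a compound share not only the compound but also the plate position and this sequence, so that an effect of either would repeat on both plates. The reverse-transcription barcodes, as the deposited annotation lists them, were
Pinometostat: cgtaagattc
SGC_0946: cgtcctagga
MI-3: aactgtgtca
MM_102: ccggccaatt
All 96 positions had the same barcode on both plates. MM_102 and SGC_0946 lay in plate row 1, in columns 4 and 6, and MI-3 and Pinometostat lay in row 8, in columns 3 and 5.

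Depth differed between the compounds. Human counts were 1238536 and 921551 in the Pinometostat wells, 686077 and 570700 with SGC_0946, 413372 and 343156 with MI-3, and 796581 and 616580 with MM_102, against 462597 to 1146568 in the reference wells. Both MI-3 wells were thus below every reference well. Per count of ERCC, the synthetic RNA added to every well, the MI-3 wells had 4.86 and 3.82 human counts, against 4.38 to 6.50 in the reference, so that 1 of them lay inside that range and 1 below it. Fewer cells and less RNA per cell cannot be told apart in such wells. Of the 24 DMSO wells, the 8 in the first plate column were shallower, with 173553 to 462611 human counts and 2.95 to 4.33 per ERCC count, and the other 16 had 446074 to 1030814 and 4.34 to 7.03. All 15 K562 markers were measured well enough to test, among them HBG1, the fetal gamma globin, with a median of 8453 CPM (counts scaled to a common library size) in the reference wells, while CD3E and MS4A1, which define T and B cells, had 0 counts there.

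Against the reference, only MI-3 gave genes past the threshold when compounds were taken singly. A model across 9241 genes, with plate as a covariate and all 44 wells sharing 1 estimate of spread, was tested with edgeR's quasi-likelihood test, and a gene was called at a Benjamini-Hochberg adjusted p under 0.05. MI-3 changed 60 genes, which is 0.649% of those tested, with 43 higher (0.465%) and 17 lower (0.184%). Pinometostat, SGC_0946 and MM_102 each changed 0 genes in this model, and likewise 0 with limma-voom and DESeq2 on these wells. Other edgeR settings gave calls, with 20 genes for Pinometostat and 9 for MM_102 where no filter on low counts was used. At an unadjusted p under 0.05 edgeR gave 372 genes (4.03%) for Pinometostat, 341 (3.69%) for SGC_0946 and 374 (4.05%) for MM_102, against 1412 (15.3%) for MI-3.

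**Figure D1:**
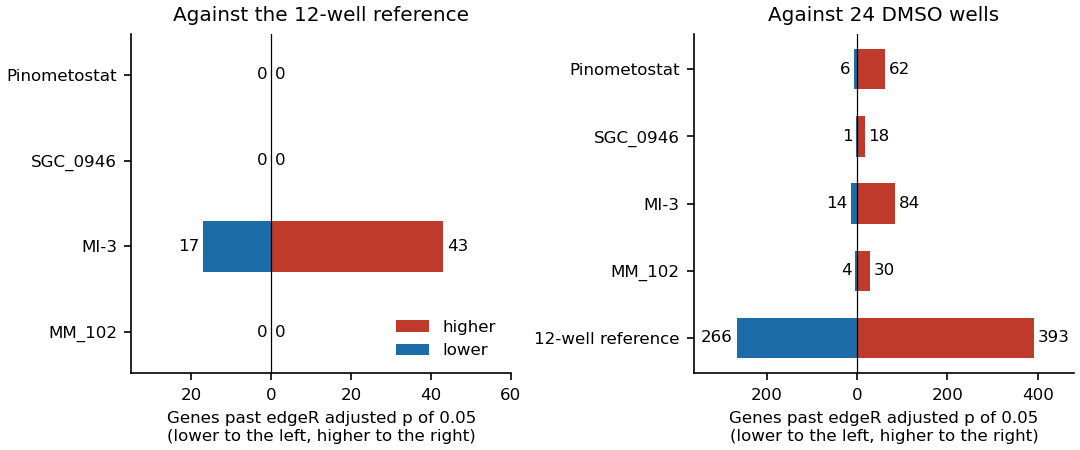
Genes called higher and lower (bars, number of 9241 genes tested, edgeR adjusted p under 0.05) for each compound against the reference and against DMSO. The reference against DMSO is also drawn. Against the reference MI-3 reached 60 genes and the other compounds 0, while against DMSO all 4 compounds had calls, from 19 for SGC_0946 to 98 for MI-3.

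The 0 counts bound the size of change for well-measured genes. Among the 3996 genes whose mean log2 CPM was 5 or more, the 95% interval of the log2 fold change against the reference lay wholly within 1 on either side of 0 for 99.3% with Pinometostat, 98.1% with SGC_0946 and 98.1% with MM_102, against 85.1% with MI-3. The median half-width of those intervals was 0.31 for Pinometostat, 0.36 for SGC_0946, 0.35 for MM_102 and 0.43 for MI-3. The width varied between genes, so these medians are not limits of detection.

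The genes of the targets themselves were not called with any of the 4 compounds, and DOT1L, MEN1 and KMT2A were measured at low levels. DOT1L mRNA had 14.9 and 20.7 CPM with Pinometostat, 21.3 and 29.9 with SGC_0946, 14.5 and 28.7 with MI-3, and 10.9 and 23.0 with MM_102, against 8.47 to 30.6 (median 19.3) in the reference wells. All 8 wells lay within the reference range. The log2 fold change of DOT1L against the reference was 0.02 with Pinometostat (95% interval -0.59 to 0.62) and 0.53 with SGC_0946 (-0.13 to 1.20).

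MEN1, which encodes menin, had 24.2 and 14.3 CPM with MI-3 and 13.6 and 31.3 with MM_102, against a reference range of 10.2 to 34.6. Its log2 fold change with MI-3 was -0.02 (95% interval -0.86 to 0.82). WDR5, the scaffold that MM_102 is directed at, had 65.3 and 70.7 CPM with MM_102, against 46.2 to 83.8 in the reference wells, and a log2 fold change of 0.07 (-0.30 to 0.45). The groups overlapped for both genes. KMT2A had 12.1 and 11.5 CPM with MI-3 and 13.6 and 8.22 with MM_102, inside the reference range of 3.00 to 20.8.

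Genes known as targets of MLL and DOT1L in MLL-fusion leukaemia were largely silent in these cells. HOXA9 and HOXA10 had 0 counts in all 44 wells, none of the 11 HOXA genes listed was tested, and MEIS1, a cofactor of the HOXA proteins, summed to 7 counts over the 12 reference wells. Of the 38 genes of the target list 11 passed the filter on low counts, and 0 of these were called with any compound. Their median log2 fold change against the reference was -0.00 with Pinometostat, 0.23 with SGC_0946, 0.25 with MI-3 and -0.01 with MM_102, where the median of all genes tested lay between -0.010 and 0.001.

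Of the 10 HOXB genes, which K562 cells do express, 6 were tested. HOXB4, a regulator of haematopoietic progenitors, had 22.4 and 25.0 CPM with Pinometostat, 27.4 and 15.8 with SGC_0946, 21.8 and 31.5 with MI-3, and 15.0 and 19.7 with MM_102, against 8.03 to 28.4 in the reference wells. Only 1 MI-3 well exceeded the reference range. Its log2 fold changes were 0.17 with Pinometostat (95% interval -0.36 to 0.69), 0.06 with SGC_0946 (-0.58 to 0.71), 0.32 with MI-3 (-0.43 to 1.07) and -0.29 with MM_102 (-0.96 to 0.38).
HOXB2 had 94.3 and 68.8 CPM with MI-3, against 48.1 to 81.8 in the reference wells, and its log2 fold change of 0.48 (SE 0.21) had an edgeR adjusted p of 0.239. The median of the 6 HOXB genes was 0.40 with MI-3 and lay between -0.05 and 0.11 with the other 3 compounds, and 0 were called.

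**Figure D2:**
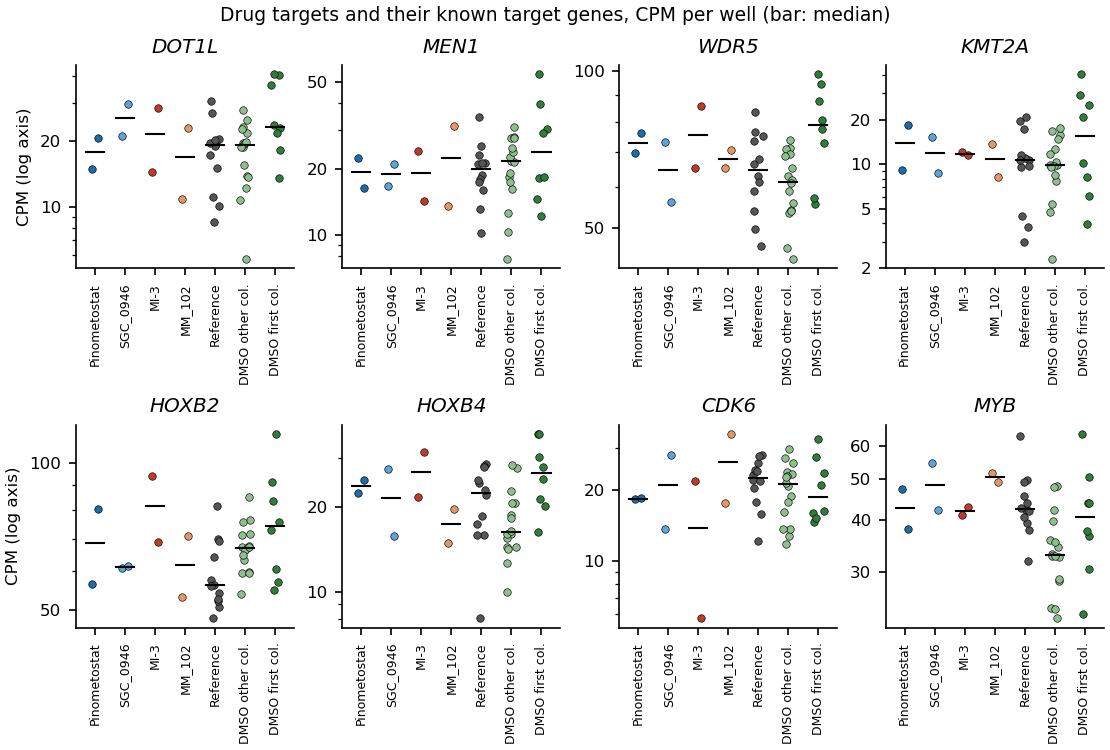
CPM per well (log axis; each point is 1 well, the bar is the median) of DOT1L, MEN1, WDR5, KMT2A, HOXB2, HOXB4, CDK6 and MYB, by compound, reference and DMSO inside and outside the first plate column. The wells of each compound lie mostly among the 12 reference wells, as for DOT1L, whose reference range was 8.47 to 30.6 CPM.

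The partners of these enzymes stayed below the threshold too. Of 9 tested genes of the DOT1L and super elongation complexes 0 were called, with medians of -0.13, -0.03, 0.24 and 0.22 for Pinometostat, SGC_0946, MI-3 and MM_102. MLLT10, the DOT1L partner AF10, had 16.6 and 25.0 CPM with Pinometostat and 15.2 and 24.6 with SGC_0946, against 17.3 to 39.1 in the reference wells, and log2 fold changes of -0.50 and -0.55 that did not pass the test. Of 14 tested members of the MLL and SET1 complexes 0 were called with any compound, and their medians lay between -0.07 and 0.09. CDKN2C, an inhibitor of cyclin-dependent kinases that menin is known to sustain in endocrine cells, had 12.1 and 17.2 CPM with MI-3, against 13.1 to 30.6, and a log2 fold change of -0.47 (SE 0.45). MYB, a transcription factor of immature blood cells, had 41.1 and 43.0 CPM with MI-3, within the reference range of 32.0 to 63.4.

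For the DOT1L inhibitors, the pooled comparison of 4 wells with the reference also gave 0 genes, with 392 (4.24%) at an unadjusted p under 0.05. The smallest adjusted p with Pinometostat was that of GIGYF1, which encodes a protein of translational repression. It had 104 and 134 CPM with Pinometostat and 47.2 and 70.3 with SGC_0946, against 31.0 to 102 (median 45.0) in the reference wells. Both Pinometostat wells lay above the highest reference well and the SGC_0946 wells lay inside the reference range, but the DMSO wells reached from 18.3 to 151 and so overlapped both compounds. The log2 fold change was 1.20 (SE 0.26, edgeR adjusted p 0.166) with Pinometostat.

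Whether Pinometostat has calls depended on the fit, and GIGYF1 and the genes that follow were chosen after their values were seen. With the log2 human counts of a well as a covariate, an alternative added after seeing the data, 24 genes were called (23 higher, 1 lower), and with human counts per ERCC count 9 were called, all higher. GIGYF1 then had log2 fold changes of 1.32 (edgeR adjusted p 2.85e-05) and 1.27 (0.00455). Without the 2 GSK126 wells in the reference 9 genes were called. Planned fits without a depth covariate gave calls too. With all wells of both plates in the fit 19 genes were higher and 1 lower, and with ERCC scaling 3 were higher. A term per reference treatment gave 9. GIGYF1 had edgeR adjusted p of 0.00018, 0.0200 and 0.0122 in these 3 fits, and it passed in 7 of 20 alternative settings.
WTAP, a subunit of the complex that writes N6-methyladenosine on mRNA, had 139 and 144 CPM with Pinometostat and 47.2 and 63.2 with SGC_0946, against 41.5 to 117 in the reference wells. CALR, the endoplasmic reticulum chaperone calreticulin, had 358 and 387 CPM with Pinometostat, against 204 to 344. Both genes lay above all 12 reference wells in the Pinometostat wells. Their log2 fold changes were 1.09 (SE 0.28) for WTAP and 0.54 (SE 0.14) for CALR, not called in the main model without a depth covariate. The median of the DMSO wells was 94.7 CPM for WTAP and 259 for CALR. The Pinometostat wells held the most human counts of the 4 compounds, and the part of depth in these values was not tested beyond the covariates.

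With MI-3, the genes called higher included AP1S1, HSD3B7, TFRC, SNHG7 and METTL17, and those called lower included PHLDA2, EXOSC4, RPS9 and GAPDH. All 60 genes lay apart from all 12 reference wells, but the test that picked them used these same wells. The share of all genes tested that lay so apart was not counted. AP1S1, a subunit of the clathrin adaptor that sorts cargo at the trans-Golgi, had 128 and 138 CPM with MI-3, against 57.3 to 91.8 (median 67.4) in the reference wells. The MI-3 wells were also above all 24 DMSO wells, whose highest value was 97.9. Its log2 fold change was 0.96 (SE 0.18, edgeR adjusted p 0.00938).

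HSD3B7, an enzyme of bile acid synthesis from oxysterols that was chosen after its values were seen, had 84.6 and 77.4 CPM with MI-3, against 32.8 to 48.5 in the reference wells. It too exceeded every DMSO well, the highest of which had 63.7, and its log2 fold change was 1.02 (SE 0.21, edgeR adjusted p 0.0169). TFRC, the transferrin receptor that brings iron into erythroid cells, had 189 and 221 CPM with MI-3, against 85.3 to 157. SLC25A37, the mitochondrial iron importer mitoferrin, had 126 and 169 CPM with MI-3, against 67.7 to 97.0. These were the 2 of 26 tested erythroid effector genes called, where 0.649% of all genes tested were called, with log2 fold changes of 0.78 (SE 0.19) for TFRC and 0.82 (SE 0.21) for SLC25A37. The median of the 26 was 0.09, and HBG1 of the same list had 7180 and 6507 CPM with MI-3, against 7945 to 8920, with a log2 fold change of -0.30 that was not called.

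Among small nucleolar RNA hosts, genes whose introns carry the guides of ribosomal RNA modification, 2 of 14 tested were higher with MI-3 and 0 lower, where 0.465% of all genes tested were higher. SNHG7 had 131 and 132 CPM with MI-3, against 44.8 to 94.7 in the reference wells, a log2 fold change of 1.13 (SE 0.26). SNHG8 had 747 and 717 CPM, against 434 to 503, a log2 fold change of 0.68 (SE 0.15). The list had a median of 0.34, and 8 of the 14 had an unadjusted p under 0.05, as had 15.3% of all genes tested. SNHG19 and the small nucleolar RNA SNORD104 also rose, with log2 fold changes of 1.12 (SE 0.29) and 1.21 (SE 0.27).

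METTL17, a factor of the mitochondrial ribosome, had 96.7 and 115 CPM with MI-3, against 35.7 to 56.1 in the reference wells, and a log2 fold change of 1.15 (SE 0.25, edgeR adjusted p 0.0179). GGA1, another adaptor of trans-Golgi sorting, had 72.5 and 68.8 CPM, against 16.9 to 36.7, and a log2 fold change of 1.46 (SE 0.35). HMGA1, a chromatin architecture protein, was among the smaller changes, with 931 and 998 CPM, against 644 to 821. HAGHL was at 389 and 453 CPM with MI-3, against 180 to 282 in the reference wells, and HMGA1 and HAGHL were chosen after their values were seen. None of these groups overlapped.

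**Figure D3:**
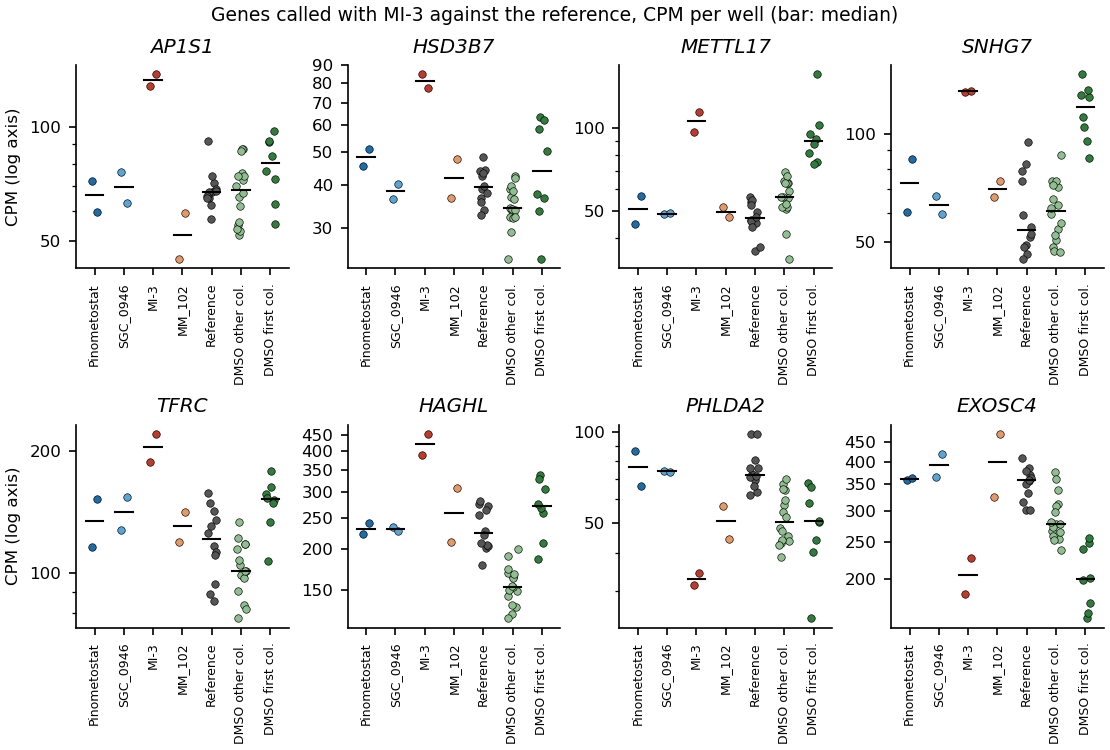
CPM per well (log axis; points are wells, bars medians) of 8 genes called with MI-3 against the reference, by compound, reference and DMSO inside and outside the first column. The MI-3 wells stand above the reference for AP1S1 (128 and 138 CPM) and below it for PHLDA2 (31.4 and 34.4 CPM), while the first-column DMSO wells reach the MI-3 level for METTL17 and SNHG7.

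PHLDA2, an imprinted gene that restrains growth in the placenta, was the lowest relative to the reference of the well-measured genes that fell with MI-3. It had 31.4 and 34.4 CPM with MI-3, against 62.1 to 98.5 (median 72.2) in the reference wells, and 24.4 to 69.8 in the DMSO wells. The MI-3 wells lay below the whole reference but inside the DMSO range. The log2 fold change against the reference was -1.21 (SE 0.28, 95% interval -1.76 to -0.66, edgeR adjusted p 0.0322).

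EXOSC4, a core subunit of the RNA exosome, had 184 and 226 CPM with MI-3, against 301 to 409 in the reference wells, and a log2 fold change of -0.78 (SE 0.18). GAPDH, the glycolytic enzyme, had 2255 and 2399 CPM, against 2961 to 3546, and a log2 fold change of -0.47 (SE 0.12, edgeR adjusted p 0.0495). Of 79 cytosolic ribosomal protein genes tested, RPS9 and RPL28 fell with MI-3 and 0 rose, where 0.184% of all genes tested fell. RPS9 had 1107 and 1046 CPM, against 1484 to 1796, and RPL28 had 1832 and 1571, against 2087 to 2444. The list's median was -0.25, and 37 of the 79 had an unadjusted p under 0.05, as had 15.3% of all genes tested.

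By gene type, the 43 higher genes were 31 protein-coding, 11 other noncoding and 1 pseudogene, and the 17 lower genes were 10 protein-coding and 7 pseudogenes. Pseudogenes were 14.6% of the genes tested, with a median log2 fold change of -0.25 with MI-3, and other noncoding genes were 4.51%, with a median of 0.33. Pseudogenes such as RPS11P7 and RPL6P27 can share reads with their parent genes, and divergent transcripts such as MLF1-DT can share reads with a neighbour where strand is not used, so their own levels are uncertain. FTH1P8 had 0 counts in both MI-3 wells.

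Most of the genes that changed with MI-3 moved the same way in the shallow DMSO wells. For all 43 genes higher with MI-3 the median of the 8 first-column DMSO wells was above that of the other 16 DMSO wells, and for 14 of the 17 lower genes it was below, where among all 9241 genes 50.8% were above. PHLDA2 was not among the 14, with a median of 50.8 CPM in the first column and 50.4 in the other columns. SNHG8, at 747 and 717 CPM with MI-3, had 575 to 753 in the first-column DMSO wells, against 389 to 467 in the other DMSO wells. RPS9, at 1107 and 1046 CPM with MI-3, had 1040 to 1263 in the first column, against 1584 to 1874 elsewhere. METTL17 had 74.3 to 156 in the first column, against 33.5 to 69.3 elsewhere. For SNHG8, RPS9 and METTL17 the MI-3 wells fell inside the first-column range.

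Of the 60 genes, 14 lay apart from all 24 DMSO wells and 56 lay apart from the 16 DMSO wells outside the first column. These counts were not made for all genes tested. AP1S1, HSD3B7, TFRC and HAGHL were among the 14, with first-column DMSO maxima of 97.9, 63.7, 179 and 338 CPM. With the log2 human counts of a well as a covariate, or human counts per ERCC count, both added after seeing the data, MI-3 had 0 calls. AP1S1 then had log2 fold changes of 0.81 (edgeR adjusted p 0.362) and 0.87 (0.116), and PHLDA2 had -1.14 and -1.07. Other genes moved more: with the human counts as covariate the log2 fold change was 0.55 for SNHG7, 0.68 for METTL17, 0.33 for SNHG19 and -0.27 for RPS9, against 1.13, 1.15, 1.12 and -0.65 without it. With every deeper well thinned to the 343156 human counts of the shallower MI-3 well, 29 genes were called (21 higher, 8 lower). First-column DMSO wells below that depth, down to 173553, were left as they were, so depth was not equal throughout. Neither MI-3 well alone gave a call, and leaving out 1 reference treatment at a time gave 14 to 52.

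**Figure D4:**
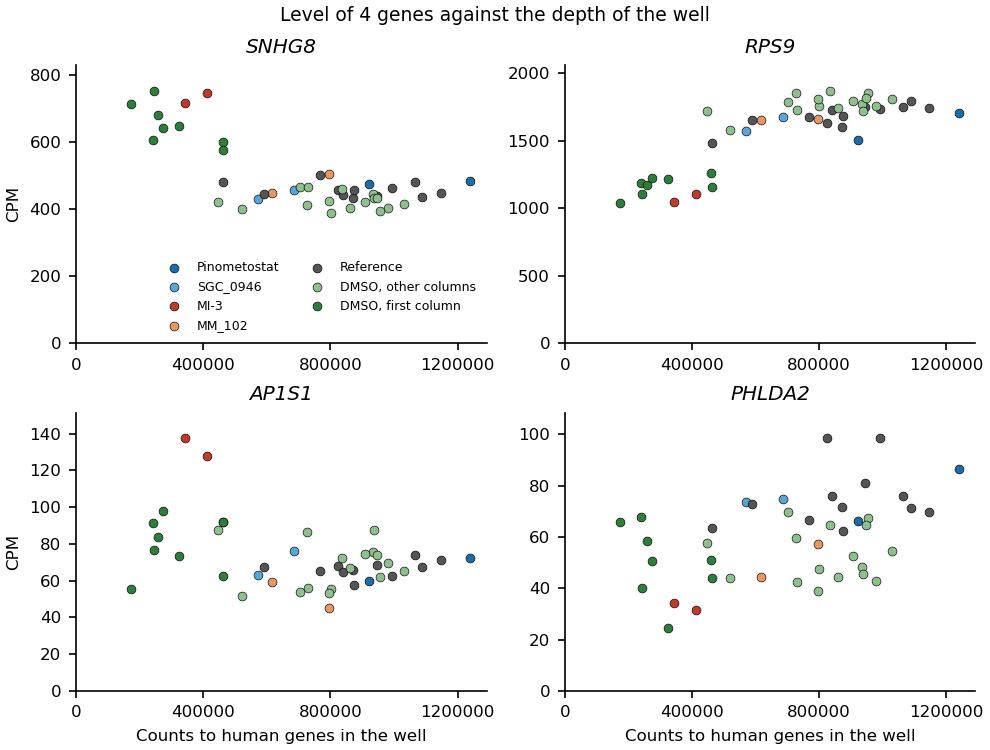
CPM of SNHG8, RPS9, AP1S1 and PHLDA2 in each well (vertical axis) against the human counts of the well (horizontal axis), coloured by compound, reference and DMSO. For SNHG8 and RPS9 the MI-3 wells lie with the shallow first-column DMSO wells, and for AP1S1 they lie above every other well, at 128 and 138 CPM.

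Against the reference, MM_102 singly had 0 calls, and the pool of both MLL complex inhibitors had 1, PHLDA2. This gene had 57.1 and 44.4 CPM with MM_102, against 62.1 to 98.5 in the reference wells, so that both MM_102 wells lay below the reference. They lay inside the DMSO range, where the median was 50.8 CPM in the first column and 50.4 in the other columns. With MI-3 and MM_102 pooled, PHLDA2 was the 1 gene called of 9241 (0.0108%). Its log2 fold change was -0.89 (SE 0.18, 95% interval -1.24 to -0.53, edgeR adjusted p 0.0393). It passed in 6 of 22 alternative settings, and its adjusted p was 0.0694 with DESeq2 and 0.0987 with limma-voom. The call was lost when any 1 of the 4 wells was left out.

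Between compounds, all 6 pairs were compared at the same 6 h, with doses unknown, and 1 gene in 1 pair was called. AP1S1 was higher with MI-3 than with MM_102, by 1.36 on the log2 scale (SE 0.24, 95% interval 0.88 to 1.85), with an edgeR adjusted p of 0.0038 within the pair and 0.0228 over the 6 pairs. Without MM_102 replicate 1 its edgeR adjusted p was 0.542, and without MI-3 replicate 1 or 2 it was 0.116 or 0.188. Against Pinometostat and SGC_0946, AP1S1 was 0.99 and 0.92 higher with MI-3, and neither passed (0.127 and 0.168).

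SGC_0946 and Pinometostat had 0 genes called between them and 319 at an unadjusted p under 0.05 in edgeR. GIGYF1 differed by -1.03 (95% interval -1.82 to -0.24, edgeR adjusted p 0.999), DOT1L by 0.52 (-0.30 to 1.33), HOXB4 by -0.10 (-0.87 to 0.66) and LMO2 by -0.16 (-0.67 to 0.36). Of the 3996 well-measured genes, 93.2% had an interval within 1 on either side of 0, with a median half-width of 0.44, and for the pair of MI-3 and MM_102 the figures were 73.3% and 0.53. A threshold that is not passed does not show that the compounds act alike.
MI-3 against Pinometostat, MI-3 against SGC_0946, MM_102 against Pinometostat and MM_102 against SGC_0946 had 830, 909, 385 and 363 genes at an unadjusted p under 0.05 in edgeR, and 0 calls. The calls for MM_102 against Pinometostat depended on the fit, with 37 (4 higher, 33 lower) when human counts were a covariate, 17 (all lower) with human counts per ERCC count and 35 with no filter on low counts. GIGYF1 had 24.5 and 32.9 CPM with MM_102, against 104 and 134 with Pinometostat, which did not overlap. Its log2 fold change in that pair was -2.05 (SE 0.45, edgeR adjusted p 0.142), and -2.30 (2.55e-05) with human counts as a covariate. With that covariate SGC_0946 against Pinometostat had 18 calls.

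Against DMSO all 4 compounds raised erythroid transcription factors, and the reference treatments did so as well. Pinometostat had 68 genes called (0.736%), 62 higher (0.671%) and 6 lower (0.0649%). SGC_0946 had 19 (0.206%), 18 higher (0.195%) and 1 lower (0.0108%). MI-3 had 98 (1.06%), 84 higher (0.909%) and 14 lower (0.151%), and MM_102 had 34 (0.368%), 30 higher (0.325%) and 4 lower (0.0433%). By target, the DOT1L inhibitors had 126 (1.36%), 101 higher (1.09%) and 25 lower (0.271%), and the MLL complex inhibitors had 95 (1.03%), 82 higher (0.887%) and 13 lower (0.141%). The reference itself differed from DMSO in 659 genes (7.13%), 393 higher (4.25%) and 266 lower (2.88%). The balance moved with the scaling: by library size alone MI-3 had 92 higher and 34 lower, the MLL complex inhibitors 80 and 28 and the reference 274 and 447, and by ERCC the DOT1L inhibitors had 165 and 0 and the reference 818 and 46. These comparisons share the DMSO wells, so their values are given side by side. Of the genes called against DMSO, 0 of 68 for Pinometostat, 0 of 19 for SGC_0946, 28 of 98 for MI-3 and 0 of 34 for MM_102 were also called against the reference, and for MI-3 these are 28 of its 60 calls there.

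LMO2, a bridging subunit of erythroid transcription complexes, had 52.3 and 51.1 CPM with Pinometostat, 44.1 and 49.2 with SGC_0946, 53.2 and 68.8 with MI-3, and 51.7 and 49.3 with MM_102, against 6.91 to 29.2 (median 20.1) in the DMSO wells. All 8 wells lay above all 24 DMSO wells. The log2 fold changes against DMSO were 1.41 (SE 0.19) with Pinometostat, 1.26 (SE 0.24) with SGC_0946, 1.63 (SE 0.26) with MI-3 and 1.38 (SE 0.22) with MM_102. The 12 reference wells had 32.0 to 61.9 CPM, and EtOH, a solvent like DMSO, gave 32.0 and 52.6.

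NFE2, which drives globin genes, had 235 and 246 CPM with Pinometostat, 247 and 288 with SGC_0946, 297 and 321 with MI-3, and 249 and 268 with MM_102, against 83.6 to 196 in the DMSO wells. Again no compound well overlapped DMSO, and the EtOH wells stood at 276 and 280. GATA1, the master regulator of the erythroid lineage, rose by 0.73 on the log2 scale with Pinometostat, 0.65 with SGC_0946, 1.09 with MI-3 and 0.73 with MM_102, and by 0.72 with the reference. MYC rose by 0.52, 0.66, 0.82 and 0.73, and by 0.66 with the reference. Of 13 tested erythroid factors, 7 rose with Pinometostat, 5 with SGC_0946, 7 with MI-3, 6 with MM_102 and 10 with the reference. Of all genes tested, 0.671%, 0.195%, 0.909%, 0.325% and 4.25% rose, in the same order. The medians of the 13 were 0.73, 0.62, 0.73 and 0.73 with the compounds and 0.72 with the reference.

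**Figure D5:**
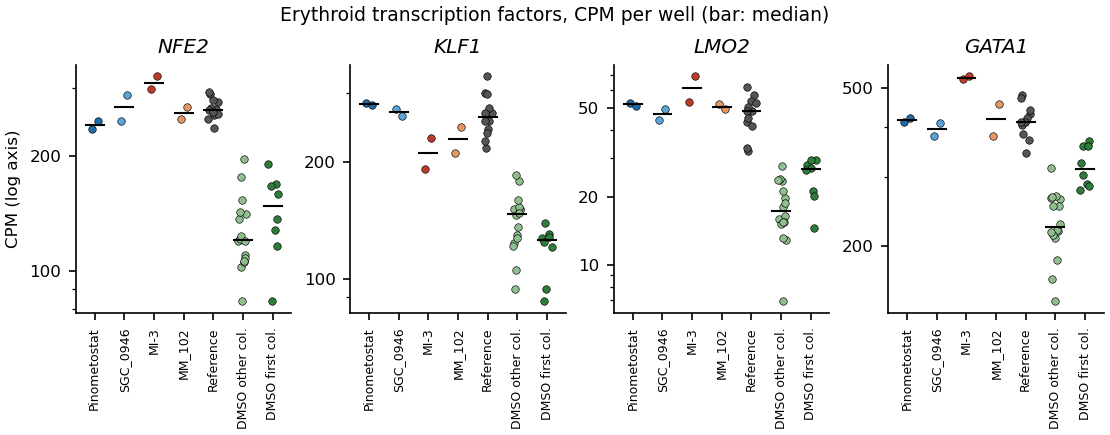
CPM per well (log axis; points are wells, bars medians) of NFE2, KLF1, LMO2 and GATA1, by compound, reference and DMSO inside and outside the first column. The compound wells and the reference wells share a level above DMSO, as for LMO2, with 44.1 to 68.8 CPM in the 8 compound wells and 6.91 to 29.2 in the 24 DMSO wells.

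Fewer genes fell than rose against all 24 DMSO wells, a balance that depended on the first plate column: against the 16 DMSO wells outside it, MI-3 had 409 genes higher and 412 lower, and the MLL complex inhibitors 327 and 301. MVK, the mevalonate kinase of sterol synthesis, had 21.8 and 5.73 CPM with MI-3, against 29.3 to 69.4 in the DMSO wells, which did not overlap, with a log2 fold change of -1.72 (SE 0.36, edgeR adjusted p 0.00331). The MI-3 values rest on 9 and 2 counts. NQO1, an oxidoreductase induced through NRF2, had 118 and 118 CPM with MI-3, against 121 to 247, and fell by 0.76. H2BC11, a core histone H2B gene, fell by 0.42 with Pinometostat, 0.57 with SGC_0946 and 0.51 with MI-3. It had 181 and 175 CPM with Pinometostat, against 170 to 298 in the DMSO wells, so the groups overlapped. The reference wells had 24.2 to 47.8 CPM of MVK, 146 to 193 of NQO1 and 154 to 213 of H2BC11. Histone genes, like the paired gamma globin genes HBG1 and HBG2, are near-identical copies that can share reads.

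MI-3 had more calls than the median treatment of the plates, and the other 3 compounds had fewer. With limma-voom on all wells, where 10312 genes were tested against the reference, MI-3 had 300 genes, Pinometostat 14, SGC_0946 0 and MM_102 0, and the median over 68 treatments was 83.5. For MI-3, 20 treatments had more calls and 47 fewer. Of the 68, 22 had 0 calls, SGC_0946 and MM_102 among them. The fit had no term for depth, and the median of the MI-3 wells was 378264 human counts. MI-2, a compound whose name is used for a menin inhibitor and for a MALT1 inhibitor and which lay directly above MI-3 on the plates, had 144.
In that fit AP1S1 had 123 and 132 CPM with MI-3 and 108 and 106 with MI-2, with log2 fold changes of 0.96 (limma-voom adjusted p 5.05e-05) and 0.71 (0.000481). HSD3B7 had log2 fold changes of 1.02 with MI-3 and -0.06 with MI-2, which was not called. Each reference treatment against the other 5 had between 0 and 3 genes called, in a separate fit of 9241 genes and not in this limma-voom fit. With a term per reference treatment, MI-3 had 7 calls against the reference and Pinometostat had more, GIGYF1 among them (edgeR adjusted p 0.0122). The 300 calls of the limma-voom fit are therefore not the figure to set beside those of the reference treatments.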

How the data were processed

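The authors deposited 1 table of counts per gene and well for each plate, and an annotation that names the compound and barcode of each well. All values of the 57905 gene lines and 92 ERCC lines were whole, so these are raw counts as deposited and not expected counts or estimated counts, and 6 summary lines that name no gene, 1 of them fractional, were left out. The submitters' processing notes name genome build hg19 (GRCh37) and the tools cutadapt 2.1, R 4.0.2, FastQC 0.11.6 and bcl2fastq 2.17.1.14. Aligner, counter, annotation and strand use were not given in the sources used here. Whether copies made by amplification were collapsed was not given either, so the counts may not be independent molecules. The fractional summary line gave average reads per UMI, a tag on single molecules. It held 2.659 and 2.383 for Pinometostat, 2.096 and 1.994 for SGC_0946, 2.036 and 1.958 for MI-3, and 2.2 and 2.004 for MM_102. Reference wells had 1.868 to 2.665 and first-column DMSO wells 1.629 to 1.905. Symbols were found for 51996 gene lines and for 8716 of the 9241 genes tested.

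In R 4.3.3, edgeR 4.0.16 was run on 44 wells: 8 of the compounds, 12 of the reference as 1 term and 24 of DMSO. Genes were kept by filterByExpr, TMM factors were computed, and plate was a covariate. Adjusted p-values are Benjamini-Hochberg over all genes tested, and over the genes of all 6 pairs where stated. limma 3.58.1 (voom) and DESeq2 1.42.0 were alternatives. Scripts were tested on simulated counts. CPM uses TMM-scaled library sizes, and the depth of each group is in the report. Plate numbers pair the wells, because each plate is 1 library, so plate is in the model.

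Named genes were, per comparison, the 10 largest changes per direction (5 in pairs) that passed the threshold, averaged 5 or more in log2 CPM and went the same way in each well, up to 4 called members of each of 23 gene lists or else up to 3 with the highest CPM, and 15 genes looked up always. The compounds, the gene lists and the tests were chosen with earlier results of these data known. A gene outside this rule is named as chosen after its values were seen.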

Additional observations from a re-analysis of the deposited data

Results flagged for a closer look

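EXOSC4, the exosome subunit, had 420 CPM in 1 SGC_0946 well, which stood apart from the other 3 wells of the DOT1L inhibitors at 360 to 365. METTL17 had 156 CPM in 1 first-column DMSO well, where the other 7 had 74.3 to 102. SNHG19 had 614 CPM in 1 first-column DMSO well, where the other 7 had 349 to 475. These 3 were singled out among 90 groups of wells examined for a distant highest or lowest value, a rule that chance meets in about 1 of 20 groups.

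AP1S1 differed between MI-3 and MM_102 by 1.36 on the log2 scale (edgeR adjusted p 0.0038, 12 settings with adjusted p from 0.000297 to 0.542), with 2 of 2 MI-3 wells above both MM_102 wells.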

How the results depend on the processing

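Counts below are genes called of those tested, by setting; the order is compound against the reference unless DMSO is named. With all wells of both plates in the fit, Pinometostat had 20 and MI-3 261. With DESeq2, MI-3 had 206 (66 higher, 140 lower), the MLL pool 0, SGC_0946 against DMSO 37, MI-3 against MM_102 2 and MI-3 against Pinometostat 2. With no filter on low counts, Pinometostat had 20, MI-3 232, MM_102 9, the DOT1L pool 3, the MLL pool 11, MM_102 against DMSO 52, the DOT1L pool against DMSO 76, SGC_0946 against Pinometostat 11, MI-3 against MM_102 44, MI-3 against Pinometostat 13, MI-3 against SGC_0946 27, MM_102 against Pinometostat 35 and MM_102 against SGC_0946 4. With library size alone, MI-3 had 110 and the MLL pool 0. With limma-voom, MI-3 had 156 and the MLL pool 0, and against DMSO MI-3 had 195 and the MLL pool 156. With ERCC scaling, which moved the median of all genes by 0.16 (Pinometostat), -0.10 (SGC_0946), -0.32 (MI-3) and -0.16 (MM_102), Pinometostat had 3 and MI-3 0, and against DMSO Pinometostat 233, SGC_0946 6, MI-3 14, MM_102 6 and the MLL pool 35; there the reference against DMSO gave 818 higher and 46 lower, where TMM gave 393 and 266. With a term per reference treatment, Pinometostat had 9, MI-3 7 and the MLL pool 0. With EtOH as the only reference, MI-3 had 0.

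The plate pairs the wells as a block. With no replicate block, MI-3 had 6 calls against the reference, and against DMSO Pinometostat had 28 and the DOT1L pool 71. With DMSO outside the first column, Pinometostat had 180, SGC_0946 48, MI-3 821 (409 higher, 412 lower), MM_102 60, the DOT1L pool 260 and the MLL pool 628 (327 higher, 301 lower). With DMSO limited to the first column, these were 1010, 978, 42, 1253, 1593 and 606, and the reference had 2807. That and the next 3 settings and EtOH alone were added after seeing the data. With deeper wells thinned to the depth of the shallower MI-3 well, MI-3 had 29 and the MLL pool 0 against the reference. DMSO wells below that depth were not altered. Against DMSO, Pinometostat then had 13, MI-3 63, MM_102 4, the DOT1L pool 37 and the MLL pool 40. MI-3 against MM_102 had 3 and against Pinometostat 1. With log2 human counts as a covariate, Pinometostat had 24, MI-3 0 and the MLL pool 0; against DMSO Pinometostat had 214, SGC_0946 34, MI-3 60, MM_102 58 and the DOT1L pool 211; SGC_0946 against Pinometostat had 18 and MM_102 against Pinometostat 37. With human counts per ERCC count, Pinometostat had 9, MI-3 0, the MLL pool 0, MM_102 against Pinometostat 17 and the reference against DMSO 428.

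Leaving out 1 well of a compound gave 0 to 0 calls for MI-3 and 0 to 0 for the MLL pool against the reference, and 0 to 1 for MI-3 against MM_102. Against DMSO it gave 6 to 14 for Pinometostat, 3 to 8 for SGC_0946, 8 to 14 for MI-3, 5 to 5 for MM_102, 31 to 73 for the DOT1L pool and 31 to 65 for the MLL pool. Leaving out 1 reference treatment gave 14 (GSK591) to 52 (Ofloxacin) for MI-3, 0 to 9 (GSK126) for Pinometostat and 0 to 1 for the MLL pool. With 1 well left, its spread was taken from the other groups. Of 3551 values over 212 genes and comparisons, 2913 stayed on the same side of the threshold, 625 lost it and 12 gained it. A change of sign was counted only where the gene was called with or without the altered setting, and there was 1. GABRE in the reference against DMSO, at 0.80, was -0.12 (edgeR adjusted p 0.575) with DMSO limited to the first column. The causes were not tested. MI-3 wells were the shallowest of the 4 compounds, and only changes larger than their intervals were detectable.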
